A study of Mus musculus with 24 samples.

Results

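The liver transcriptome of mice fed a high fat diet with marine n-3 fatty acids (HFD-EPA/DHA) was compared between 12 weeks and 8 weeks of feeding, over all 41345 probe sets of the array. The samples were chosen by their diet and time labels alone, which gave 8 of the 24 arrays of the series, 4 livers at 12 weeks and 4 livers at 8 weeks, each from a different mouse. All mice were male C57BL/6J, an inbred strain. Both groups ate the same diet, in which corn oil, coconut oil and EPAX oils rich in eicosapentaenoic acid (EPA) and docosahexaenoic acid (DHA) supplied the fat, with added cholesterol and more sucrose than in the control diet. The series also held HFD-corn oil livers, in which corn oil took the place of the marine oils, and low fat control livers, each with 4 arrays at 12 weeks and 4 at 8 weeks. They are used below only to show where the HFD-EPA/DHA livers differed.

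The 12-week and 8-week mice belonged to separate feeding studies, so 4 more weeks of diet cannot be told apart from the study. The 12-week mice were 10 weeks old when feeding began and the 8-week mice were 9 weeks old. Isoflurane anaesthesia for a body composition scan on the day of termination is described for the 12-week mice. In both studies food was removed in the early morning and mice were killed over a window of several hours later that morning, on consecutive days. The study states that mice were taken at random and in alternation from a pair of diet groups each day. The 4 livers of a group were picked on body weight and plasma lipids. The day, hour and kill order of each single mouse were not given in the sources used here.

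EPA and DHA are long-chain polyunsaturated fatty acids that liver cells build into membranes, burn, or use as ligands. They bind PPARα, the nuclear receptor that switches on fatty acid oxidation in mitochondria and peroxisomes, and they restrain SREBP-1c, the transcription factor behind fatty acid synthesis. The liver also makes the acute phase proteins of the blood, stores zinc on metallothioneins, and carries its own circadian clock, which is reset by feeding.

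No transcript passed the test between 12 and 8 weeks of HFD-EPA/DHA once p-values were adjusted over all probe sets. With limma and Benjamini-Hochberg adjustment over the whole table, 0 probe sets were higher at 12 weeks (0% of 41345) and 0 were lower (0%), and the smallest adjusted p was 0.350, shared by 5 probe sets. At an unadjusted p under 0.05, 874 probe sets lay above their 8-week level at 12 weeks (2.11%) and 1396 lay below it (3.38%). Counted as 1 probe set per gene, 458 of 22180 genes lay above at that unadjusted level (2.06%) and 721 lay below (3.25%), and these 2 shares are the background for every such count below. The 4 arrays at 12 weeks lay entirely above the 4 at 8 weeks for 262 genes (1.18%) and entirely below for 368 genes (1.66%). These shares are the background for counts of genes with separate groups. Of all 22180 genes 46.6% lay above their 8-week level on average, which is the background for counts above or below 0. The 95% interval of the log2 fold change (12 weeks over 8 weeks) lay within 1 log2 unit of 0 for 99.4% of probe sets and within 0.5 for 90.7%. These shares include probe sets with no gene symbol or a low signal. The intervals use 1 spread estimate per probe set shared by all 6 groups, so they do not show a wider spread in 1 group. The same fit called 255 probe sets between HFD-EPA/DHA and control livers at 12 weeks (0.617%) and 183 at 8 weeks (0.443%).

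Values below are log2 signals as deposited, so a difference of 1 is a 2-fold change, and levels are compared between samples of the same gene only. The array medians lay between 7.14 and 7.21, and a gene below them had a low signal. Because no gene passed the adjusted threshold, the text gives levels, fold changes and intervals, and does not call any HFD-EPA/DHA gene changed. The hepatocyte marker Alb, which encodes albumin, lay between 13.39 and 13.47 at 12 weeks and between 13.41 and 13.51 at 8 weeks. These levels are close to the highest value of the data, 13.93, so Alb says little about the mix of cells. Marker sums of other cell types differed between livers and are given below. Arrays correlated at 0.988 to 0.990 within 12 weeks, 0.981 to 0.988 within 8 weeks and 0.983 to 0.991 between the times. Replicate 2 of the 8-week group stood apart in acute phase and clock genes. Without it 46 of the 132 named genes had a log2 fold change that moved by more than 1.5 times or across 0. Any other liver left out moved 10 to 30 genes. Leaving out 8-week replicate 3 moved 30, of which 14 crossed 0, against 6 that crossed without replicate 2. Values that moved so far without replicate 2 are given beside the result or, for the clock, together at the end of that account. Moves without another liver are given only for some genes. Orm2, Fasn, Junb, Fabp4 and Hspa1b were not among the 132, so no such values are given for them.

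**Figure D1:**
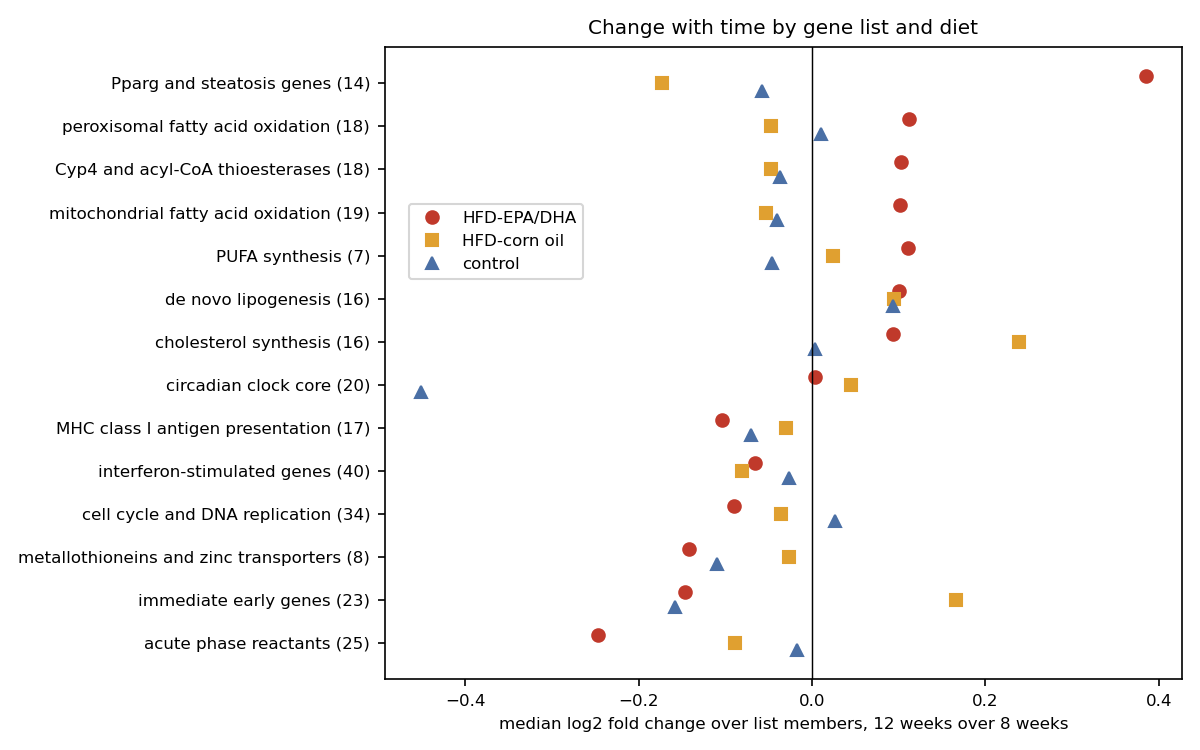
Median log2 fold change of 14 gene lists (12 weeks over 8 weeks, x axis) on HFD-EPA/DHA (circles), HFD-corn oil (squares) and control diet (triangles), with the number of genes measured in brackets. The Pparg and steatosis list had the highest HFD-EPA/DHA median shown, 0.39, and the acute phase list the lowest, -0.25.

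The promoters of 5 genes that return below are shown because they hold letters read by factors of the zinc, cAMP and clock systems. They are the 250 bases before the annotated start from RefSeq (GRCm38.p6), 5′ to 3′ on the gene's strand, with the motif in capitals. Mt1 (chr8:94178839-94179088, plus strand) and Mt2 (chr8:94172368-94172617, plus strand) encode metallothioneins, and the capitals mark the metal response element, searched as TGCACNC or TGCGCNC on both strands, a search that was added after the values were seen. Btg2 (chr1:134079156-134079405, minus strand) encodes an antiproliferative immediate early protein, and the capitals mark the cAMP response element TGACGTCA. Ciart (chr3:95882229-95882478, minus strand) encodes a repressor of the clock, and the capitals mark the E-box CACGTG. Per3 (chr4:151044666-151044915, minus strand) encodes a period protein of the clock, and the capitals mark the D-box TTATGTAA.
Mt1: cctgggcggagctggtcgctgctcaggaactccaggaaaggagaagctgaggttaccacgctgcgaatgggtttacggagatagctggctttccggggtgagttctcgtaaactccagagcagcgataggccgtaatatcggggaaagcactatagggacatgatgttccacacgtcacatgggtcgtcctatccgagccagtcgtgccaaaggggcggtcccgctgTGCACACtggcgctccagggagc
Mt2: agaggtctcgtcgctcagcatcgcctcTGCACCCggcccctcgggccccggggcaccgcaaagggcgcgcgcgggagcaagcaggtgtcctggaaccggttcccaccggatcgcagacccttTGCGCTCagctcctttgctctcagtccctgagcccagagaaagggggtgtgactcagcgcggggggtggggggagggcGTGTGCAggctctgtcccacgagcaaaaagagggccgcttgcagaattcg
Btg2: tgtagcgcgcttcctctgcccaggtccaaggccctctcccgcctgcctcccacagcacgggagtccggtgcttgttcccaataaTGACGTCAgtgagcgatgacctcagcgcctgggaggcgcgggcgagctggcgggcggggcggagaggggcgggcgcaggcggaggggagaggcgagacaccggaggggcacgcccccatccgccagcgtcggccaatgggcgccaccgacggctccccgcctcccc
Ciart: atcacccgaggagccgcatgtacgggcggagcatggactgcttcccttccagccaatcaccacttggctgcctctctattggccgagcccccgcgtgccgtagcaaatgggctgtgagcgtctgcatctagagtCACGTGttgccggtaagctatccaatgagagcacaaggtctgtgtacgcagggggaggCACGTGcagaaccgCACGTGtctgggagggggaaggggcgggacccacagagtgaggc
Per3: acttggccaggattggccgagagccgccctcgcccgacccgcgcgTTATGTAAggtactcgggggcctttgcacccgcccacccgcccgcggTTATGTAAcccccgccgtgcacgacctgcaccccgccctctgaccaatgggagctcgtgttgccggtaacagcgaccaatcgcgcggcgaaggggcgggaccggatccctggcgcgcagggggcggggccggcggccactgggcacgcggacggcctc
In these windows Mt1 held 1 metal response element and Mt2 held 3, Btg2 held 1 cAMP response element, Ciart 3 E-boxes and Per3 2 D-boxes, and no capital stretch overlapped another motif searched. Btg2 also held 1 and Per3 also held 3 matches to the metal letters. The background was all 32841 RefSeq promoters of 300 bases (250 before to 50 after the start). Of them 25.7% held either metal form, 7.15% the E-box, 1.79% the cAMP response element and 0.938% the D-box. In windows of that length Mt1 held 2 TGCACNC matches and 1 TGCGCNC match, and Mt2 held 2 of each. At least 3 matches to either metal form were found in 1.97% of all promoters, and at least 4 in 0.518%. The PPAR response element was searched as a direct repeat with 1 base between and was found in 0.0396% of all promoters and in 0 of the 104 named genes that matched the promoter table, of 132 looked up. Of the 20 clock genes described below, 5 held an E-box and 2 a D-box in at least 1 promoter. Bhlhe40 had no promoter to search, and some genes had several. These counts per gene are therefore not on the same scale as the shares per promoter above.

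Genes of fatty acid oxidation outside the mitochondrion lay above their 8-week level at 12 weeks of HFD-EPA/DHA. Of 18 peroxisomal oxidation genes measured, 15 had a positive log2 fold change, with a median of 0.11 against -0.01 over all genes, 5 passed an unadjusted p of 0.05 upward and 3 had arrays that did not overlap. Ehhadh, which carries out the middle steps of peroxisomal β-oxidation, measured 12.51, 12.35, 12.44 and 12.14 at 12 weeks, against 11.76, 11.83, 11.98 and 11.92 at 8 weeks. All 4 of its 12-week livers lay above all 4 of its 8-week livers, a log2 fold change of 0.49 (95% interval 0.29 to 0.69, limma adjusted p = 0.350). Crat, carnitine acetyltransferase, which loads short acyl groups onto carnitine, measured 11.44, 11.36, 11.32 and 10.75 at 12 weeks, against 10.68, 10.66, 10.72 and 10.51 at 8 weeks. Its groups were also separate, although 12-week replicate 4 lay close to the 8-week livers. Acaa1b, the thiolase of the last step, had a log2 fold change of 0.41 with overlapping groups. Hacl1 (0.32, and 0.19 without 8-week replicate 3), which shortens 2-hydroxy and branched acids, also overlapped.

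Acyl-CoA thioesterases, which release free fatty acids from coenzyme A, gave the larger differences. Acot1, the cytosolic form, measured 8.75, 8.64, 9.06 and 8.70 at 12 weeks, against 7.88, 7.90, 8.20 and 8.40 at 8 weeks. That is a log2 fold change of 0.69 (95% interval 0.37 to 1.02, limma adjusted p = 0.555), with no overlap. Acot3, a peroxisomal form, measured 10.39, 9.28, 9.24 and 9.22 at 12 weeks, against 8.09, 7.05, 9.05 and 8.27 at 8 weeks. The groups did not overlap, but 12-week replicate 1 lay far above its group, and 8-week replicate 3 came close to the other 12-week livers. The log2 fold change was 1.42 (95% interval 0.30 to 2.53), and 1.06 without 8-week replicate 2. Acot2 (0.43), the mitochondrial form, had separate groups, and Acot4 (0.54), a peroxisomal form, had overlapping ones. Over the 18 Cyp4 and thioesterase genes measured, 13 lay above 0 and the median was 0.10.

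The peroxisomal median, Acot1 and Ehhadh changed less with time on the other diets, though the differences between diets did not pass adjustment. This did not hold for every thioesterase. Acot4 was at -0.54 on HFD-corn oil and -0.17 on control, against 0.54 on HFD-EPA/DHA. Acot3 was at -1.02 on HFD-corn oil and -0.41 on control, while Acot2 was at -0.10 and 0.05. The HFD-corn oil values at 8 weeks rest on 3 arrays. The median of the peroxisomal list was 0.11 on HFD-EPA/DHA, -0.05 on HFD-corn oil and 0.01 on control. For Acot1 the mean was 8.79 at 12 weeks and 8.09 at 8 weeks of HFD-EPA/DHA, 8.05 against 8.14 on HFD-corn oil, and 7.50 against 7.55 on control. The change of Acot1 on HFD-EPA/DHA exceeded that on HFD-corn oil by 0.78 (95% interval 0.30 to 1.25, limma adjusted p = 0.997) and that on control by 0.74 (95% interval 0.29 to 1.20, adjusted p = 0.983). For Ehhadh the corresponding differences were 0.50 (95% interval 0.20 to 0.80) and 0.30 (95% interval 0.01 to 0.58). In neither of these 2 tests of the difference did any probe set pass over the whole table (0% each), with 1844 of 41345 at an unadjusted p under 0.05 for HFD-corn oil (4.46%) and 2045 for control (4.95%).

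Mitochondrial oxidation genes showed a small shift in one direction. Of 19 measured, 18 lay above 0 on HFD-EPA/DHA, with a median log2 fold change of 0.10 and a highest value of 0.21 for Slc25a20, the carnitine-acylcarnitine carrier of the inner membrane, whose groups overlapped. Acaa2 (0.13), Eci1 (0.16, and 0.11 without 8-week replicate 2) and Decr1 (0.12), enzymes of the β-oxidation spiral and of unsaturated acids, followed. Of the fasting and ketone genes, Bdh1, which interconverts the ketone bodies, measured 11.34, 11.26, 11.41 and 11.30 at 12 weeks, against 11.11, 10.96, 11.22 and 11.20 at 8 weeks. Its groups were separate by a narrow margin, with a log2 fold change of 0.20. Vnn1 (0.69), a pantetheinase that recycles coenzyme A precursors, and Pdk4 (0.57), the kinase that shuts off pyruvate oxidation, lay higher on average with overlapping groups. Ppara itself had a log2 fold change of 0.11 (95% interval -0.26 to 0.48), and -0.085 without 8-week replicate 2. The median of the fasting and ketone list was 0.10, and -0.012 without that liver.

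**Figure D2:**
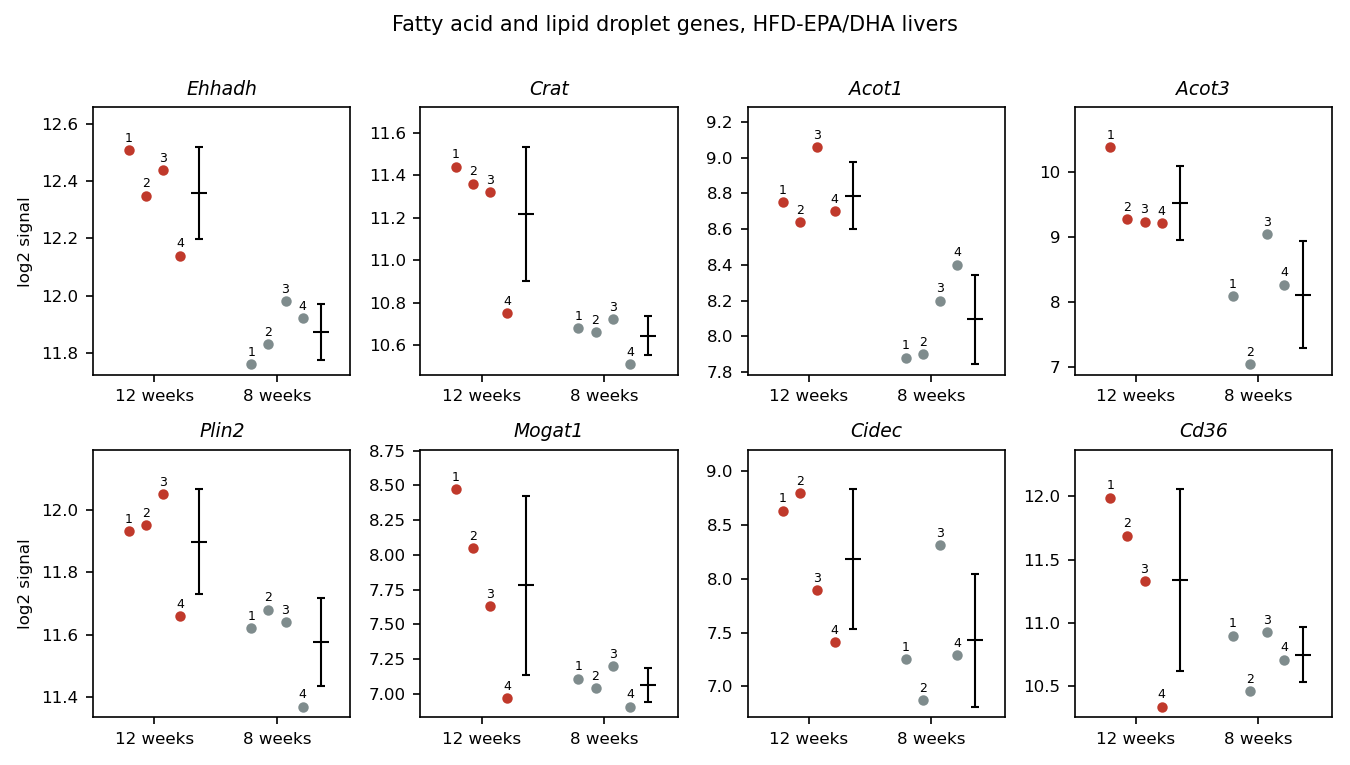
Log2 signal (y axis) of 8 lipid genes in each HFD-EPA/DHA liver at 12 weeks (left) and 8 weeks (right), points numbered by replicate, with the mean and SD (n = 4 each) as bars. Ehhadh, Crat, Acot1 and Acot3 had no overlap between the groups, while Plin2, Mogat1, Cidec and Cd36 overlapped, with 12-week replicate 4 the lowest of its group in each.

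Genes tied to PPARγ, the receptor that drives fat storage, and to steatosis lay higher on average at 12 weeks, mainly in replicates 1 and 2. Over the list, 12-week replicate 3 was level with 8-week replicate 3, and 12-week replicate 4 was the lowest of the 8 livers. Lipid droplet proteins as a whole did not share this direction, since 11 of 21 measured lay above 0 and 10 below, with a median of 0.016 and 4 genes at an unadjusted p under 0.05, all upward. Of 14 Pparg and steatosis genes measured, 12 lay above 0 on HFD-EPA/DHA, the median log2 fold change was 0.39, and 9 had an unadjusted p under 0.05, all upward, but none had separate groups. The mean deviation of the list from each gene's average over the 8 livers was 0.516, 0.456, 0.116 and -0.379 at 12 weeks, against -0.215, -0.319, 0.109 and -0.285 at 8 weeks. The list was put together with earlier results of these data known, and 10 of its 14 measured genes are ones the study named from arrays that included these, so its direction is not independent evidence. Mogat1, a monoacylglycerol acyltransferase of triglyceride synthesis, measured 8.47, 8.05, 7.63 and 6.97 at 12 weeks, against 7.11, 7.04, 7.2 and 6.91 at 8 weeks. Cidec, a lipid droplet fusion protein, measured 8.63, 8.79, 7.89 and 7.41 at 12 weeks, against 7.25, 6.87, 8.31 and 7.29 at 8 weeks. Cd36, a fatty acid transporter, measured 11.99, 11.69, 11.33 and 10.34 at 12 weeks, against 10.90, 10.46, 10.93 and 10.71 at 8 weeks. In Mogat1 and Cd36 12-week replicates 1, 2 and 3 lay above all 8-week livers and replicate 4 lay among or below them. The log2 fold change of Cd36 was 0.59, and it was 0.37 without 12-week replicate 1 and 0.92 without 12-week replicate 4. The spread of this list was wider at 12 weeks, with a median SD of 0.42 against 0.28 at 8 weeks.

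Most other members of this list also lay above 0. Cidea (0.62), a relative of Cidec, Sema5b (0.40), a semaphorin, Fabp2 (0.40), an intracellular fatty acid binding protein, Fitm1 (0.37), which shapes lipid droplets, and Aldh3a2 (0.29), a fatty aldehyde dehydrogenase, had positive log2 fold changes and overlapping groups. Lgals1 (0.38), a galectin, and Pparg (0.21) had 95% intervals that included 0, as did the 2 members below 0, Fabp4 (-0.26), a fatty acid binding protein of fat cells and macrophages, and Apoa4 (-0.17, and -0.05 without 8-week replicate 2), an apolipoprotein secreted with triglyceride. Plin2, which is not on this list and is the main coat protein of liver lipid droplets, measured 11.93, 11.95, 12.05 and 11.66 at 12 weeks, against 11.62, 11.68, 11.64 and 11.37 at 8 weeks. It had a log2 fold change of 0.32 (95% interval 0.14 to 0.50, limma adjusted p = 0.682), and only 12-week replicate 4 fell within the 8-week range. On HFD-corn oil the median of the Pparg and steatosis list was -0.17 and on control -0.06. For Cidec the mean was 8.18 at 12 weeks and 7.43 at 8 weeks of HFD-EPA/DHA, 8.66 against 9.33 on HFD-corn oil, and 7.23 against 7.68 on control. The change of Cidec on HFD-EPA/DHA exceeded that on HFD-corn oil by 1.41 (95% interval 0.57 to 2.26, limma adjusted p = 0.997) and that on control by 1.20 (95% interval 0.39 to 2.01, adjusted p = 0.983).

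Fatty acid and sterol synthesis differed little between the times, and individual mice spread widely. For de novo lipogenesis genes the median change was 0.10 (log2) on HFD-EPA/DHA, while HFD-corn oil gave 0.10 and control 0.09. The HFD-EPA/DHA median was -0.019 without 8-week replicate 2 and reached 0.17 without 12-week replicate 4. Fasn, fatty acid synthase, measured 11.94, 12.19, 11.01 and 10.69 at 12 weeks, against 11.50, 10.62, 11.39 and 11.54 at 8 weeks. Replicates 1 and 2 at 12 weeks lay above every 8-week liver, and replicates 3 and 4 lay near the lowest of them. Thrsp (-0.69), a lipogenic activator, Me1 (0.46), malic enzyme, Scd1 (0.14), the stearoyl desaturase, and Mid1ip1 (0.24), a partner of acetyl-CoA carboxylase, had 95% intervals that included 0. Without 8-week replicate 2 Thrsp was at -1.06, Scd1 at 0.058 and Mid1ip1 at 0.074. In the pathway that makes EPA and DHA from shorter acids, the desaturases Fads1 (0.09) and Fads2 (0.11) and the elongase Elovl2 (0.13) also had intervals that included 0, and without that liver Fads1 was at -0.001, Fads2 at 0.055 and the median of the list at 0.055 in place of 0.11. The elongase Elovl5 had 0.43 (95% interval 0.13 to 0.73, limma adjusted p = 0.789). The related desaturase Fads3 had -0.17, with separate groups and an interval that included 0. Cholesterol synthesis had a median of 0.09, with Hmgcs1 at 0.33, Tm7sf2 at 0.29, Sc5d at 0.24 and Fdft1 at 0.17, all 4 enzymes of the pathway with overlapping groups. That median was -0.006 without 8-week replicate 3, with Hmgcs1 at 0.15, and 0.24 without replicate 1, with Hmgcs1 at 0.56. Without replicate 2 the median was 0.06, with Tm7sf2 at 0.16, Sc5d at 0.16 and Fdft1 at 0.10.

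Triglyceride synthesis genes other than Mogat1 lay close to 0, with Dgat1, which adds the last acyl chain, at 0.15 (0.07 without 8-week replicate 2), the acyltransferase Agpat3 at 0.12 (0.07 without it) and the phosphatase Lpin3 at -0.21. Among cytochromes P450 of the Cyp1, Cyp2 and Cyp3 families, which oxidise drugs, steroids and fatty acids, 26 of 37 lay above 0 with a median of 0.04, which was 0.02 without 8-week replicate 2 and 0.10 without 12-week replicate 4. Cyp2b9, a female-biased form in mice, measured 11.27, 11.35, 7.94 and 9.33 at 12 weeks, against 6.76, 7.2, 7.64 and 10.04 at 8 weeks. It had the highest log2 fold change of all genes, 2.06 (95% interval 0.44 to 3.69), yet 8-week replicate 4 lay above 12-week replicates 3 and 4. Cyp2c38 measured 11.92, 11, 10.94 and 10.84 at 12 weeks, against 10.28, 10.01, 10.43 and 10.49 at 8 weeks, and its groups were separate. Cyp3a11 (0.25) and Cyp2c29 (0.17), abundant xenobiotic oxidases, had overlapping groups. Among carboxylesterases, hydrolases of lipid and drug esters, Ces2e (0.34) and Ces2b (-0.43) had separate groups in opposite directions, and Ces1e (0.48) and Ces1f (0.19) overlapped. Ces2b averaged 6.71 at 12 weeks and 7.13 at 8 weeks, below every array median.

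The other genes that the study discusses gave small values. Apoa5 (0.21), an activator of triglyceride clearance, had a 95% interval of 0.02 to 0.40. Retsat (0.18), a retinol saturase, Slc22a5 (0.09), the carnitine transporter, Hsd17b6 (0.29), a steroid dehydrogenase, Etnppl (0.11), which degrades phosphoethanolamine, and Mreg (0.27), melanoregulin, had intervals that included 0. Without 8-week replicate 2 Hsd17b6 was at 0.17 and Etnppl at -0.016. Without 8-week replicate 3 Hsd17b6 was at 0.585 and Mreg at 0.12. The study picked these genes on arrays that included the present ones. Of its 23 named genes, 20 lay above 0 and the median was 0.21, and the 2 lowest were the metallothioneins.

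The metallothioneins Mt1 and Mt2, small zinc-binding proteins whose promoters are printed above, lay lower at 12 weeks in every liver. Mt1 measured 9.18, 8.71, 8.53 and 8.86 at 12 weeks, against 9.74, 9.91, 9.43 and 10.91 at 8 weeks. The log2 fold change was -1.18 (95% interval -1.71 to -0.64, limma adjusted p = 0.555). Mt2 measured 10.37, 9.65, 9.64 and 9.50 at 12 weeks, against 10.63, 11.70, 10.49 and 12.58 at 8 weeks. The log2 fold change was -1.56 (95% interval -2.35 to -0.77, limma adjusted p = 0.629), with 8-week replicate 4 the highest for both genes. For Mt2 the mean was 9.79 at 12 weeks and 11.35 at 8 weeks of HFD-EPA/DHA, 9.91 against 9.73 on HFD-corn oil, and 9.75 against 9.85 on control, so the 8-week HFD-EPA/DHA livers stood above the other 5 groups. The change of Mt2 on HFD-EPA/DHA differed from that on HFD-corn oil by -1.73 (95% interval -2.90 to -0.57, limma adjusted p = 0.997) and from that on control by -1.46 (95% interval -2.58 to -0.35, adjusted p = 0.983). The study had named both genes as higher on HFD-EPA/DHA than on the other diets, from arrays that included these 8-week livers. The high 8-week level, the fall from it and the differences between diets are therefore not independent evidence. Slc39a14 (-0.19), a zinc importer, and Mtf1 (-0.15), the factor that binds the metal response element, had overlapping groups. Glucocorticoid target genes, of which metallothioneins are also members, had 4 of 19 with separate groups, all lower: Mt1, Mt2, Lcn2 and Cebpd (-0.40), a transcription factor of the stress response. Over all genes 1.66% had separate groups downward. Lcn2 is counted again among the acute phase genes below, so the lists are not separate support. Angptl4 (0.25, and 0.12 without 8-week replicate 2), a lipase inhibitor on the same list, overlapped. The glucocorticoid list had a median of -0.08, which was -0.19 without 8-week replicate 2 and -0.008 without replicate 4.

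**Figure D3:**
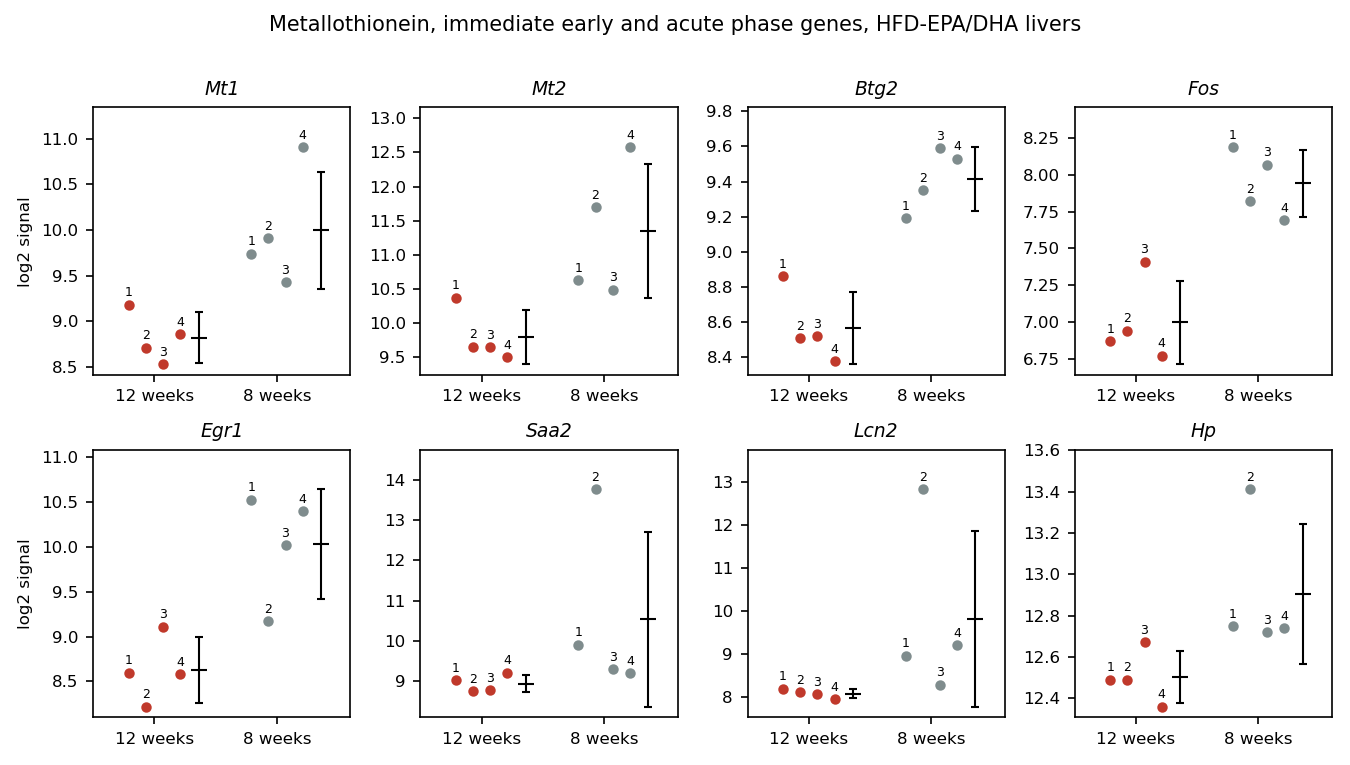
Log2 signal (y axis) of 2 metallothionein, 3 immediate early and 3 acute phase genes in each HFD-EPA/DHA liver at 12 weeks (left) and 8 weeks (right), points numbered by replicate, with the mean and SD (n = 4 each) as bars. Mt1, Mt2, Btg2, Fos, Egr1, Lcn2 and Hp had no overlap, and 8-week replicate 2 lay far above its group for Saa2, Lcn2 and Hp.

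Immediate early genes, which respond to stimuli within minutes, lay lower at 12 weeks. Of 23 measured, 18 lay below 0 with a median of -0.15, 6 had an unadjusted p under 0.05 downward and 1 upward, and 4 had separate groups. Btg2, whose promoter is printed above, had the smallest p of any named gene and measured 8.86, 8.51, 8.52 and 8.38 at 12 weeks, against 9.19, 9.35, 9.59 and 9.53 at 8 weeks. The log2 fold change was -0.85 (95% interval -1.18 to -0.51, limma adjusted p = 0.350). Fos, a subunit of the AP-1 transcription factor, measured 6.87, 6.94, 7.41 and 6.77 at 12 weeks, against 8.19, 7.82, 8.07 and 7.69 at 8 weeks. Egr1, a zinc finger transcription factor, measured 8.60, 8.22, 9.11 and 8.58 at 12 weeks, against 10.53, 9.17, 10.02 and 10.40 at 8 weeks. Both had separate groups, with log2 fold changes of -0.95 and -1.40, and Junb, another AP-1 subunit, had -0.54. Ier2 (-0.48), a nuclear protein of the same class, overlapped at 1 array.

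The other diets did not share 1 direction for these genes. The immediate early median was -0.15 on HFD-EPA/DHA, 0.17 on HFD-corn oil and -0.16 on control. For Egr1 the mean was 8.63 at 12 weeks and 10.03 at 8 weeks of HFD-EPA/DHA, 8.77 against 8.38 on HFD-corn oil, and 9.16 against 10.82 on control. For Btg2 the change on HFD-EPA/DHA differed from that on HFD-corn oil by -1.25 (95% interval -1.74 to -0.75, limma adjusted p = 0.508), the smallest adjusted p of that test, and from that on control by -0.33 (95% interval -0.80 to 0.14). Fgfr1, a growth factor receptor, ranked next against HFD-corn oil, at -0.46 on HFD-EPA/DHA, against 0.13 on HFD-corn oil. Iqch (-0.25 on HFD-EPA/DHA, 0.29 on HFD-corn oil), D230004N17Rik (-0.30 and 0.19), Cr2 (0.25 and -0.27) and Sh3bgrl2 (0.36 and -0.14) followed, each in opposite directions on the 2 diets.

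Acute phase genes lay lower at 12 weeks, and a large share of the difference came from 1 liver. Of 25 measured, 22 lay below 0, the median was -0.25, 10 had an unadjusted p under 0.05 downward and 6 had separate groups. Saa2, a serum amyloid A, measured 9.02, 8.74, 8.76 and 9.20 at 12 weeks, against 9.90, 13.77, 9.29 and 9.18 at 8 weeks. Lcn2, an iron-scavenging lipocalin, measured 8.20, 8.12, 8.07 and 7.95 at 12 weeks, against 8.96, 12.82, 8.29 and 9.21 at 8 weeks. Orm2, an orosomucoid, measured 9.17, 9.30, 9.48 and 9.16 at 12 weeks, against 9.49, 12.89, 9.91 and 9.94 at 8 weeks. In each, 8-week replicate 2 lay far above the other 7 livers. Without that liver the median of the list was -0.07 and 5 genes had an unadjusted p under 0.05 downward, and the log2 fold change of Saa2 was -0.53 in place of -1.60 and that of Lcn2 -0.74 in place of -1.73.

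In some acute phase genes the other 8-week livers also lay high. Serpina3n, a protease inhibitor, measured 12.23, 12.16, 12.01 and 12.10 at 12 weeks, against 12.30, 12.76, 12.39 and 12.54 at 8 weeks. Its log2 fold change was -0.38 (95% interval -0.58 to -0.17, limma adjusted p = 0.674), and -0.29 without 8-week replicate 2. Hp, haptoglobin, had -0.40 and -0.23 without that liver, and Orm3 had -0.84 and -0.56. In the same liver the summed signal of 10 neutrophil markers was 1448, against 959 to 1001 in the other 8-week livers, and 951 to 1067 at 12 weeks. These neutrophil markers had low signals, with a list mean of 6.55 at 12 weeks and 6.66 at 8 weeks (log2), below every array median. The summed signal of 14 Kupffer cell and macrophage markers was 15297 in 8-week replicate 2, 11468 to 12005 in the other 8-week livers, and 10703 to 13275 at 12 weeks. In a bulk liver, more cells of a type and more RNA per cell cannot be told apart, and the part of these cells in the acute phase values was not tested. Moxd1, a monooxygenase-like protein, measured 6.56, 6.49, 6.59 and 7.45 at 12 weeks, against 9.58, 11.14, 7.39 and 6.54 at 8 weeks, with 8-week replicate 2 again the highest. Its log2 fold change was -1.89, and -1.06 without that liver.

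Immune and cell cycle genes showed small negative values. Of 40 interferon-stimulated genes 30 lay below 0 with a median of -0.07. The mean deviation of this list from each gene's average over the 8 livers was -0.188, -0.152, -0.187 and 0.347 at 12 weeks, against -0.022, 0.159, 0.095 and -0.050 at 8 weeks. Replicate 4 at 12 weeks was thus the highest of all 8 livers, and the median was -0.19 without it, -0.027 without 8-week replicate 2 and -0.025 without 12-week replicate 3. Ifih1 (-0.33) and Ddx58 (-0.25), sensors of viral RNA, had separate groups, while Irf7 (-0.35) and Rtp4 (-0.31) overlapped. Of 17 MHC class I genes 14 lay below 0 with a median of -0.10, which was -0.05 without 8-week replicate 3 and -0.06 without 12-week replicate 3. The peptide transporter Tap2 (-0.25), the immunoproteasome subunit Psmb9 (-0.35) and H2-Q4 (-0.19) had separate groups, while Nlrc5 (-0.33), the activator of this class, overlapped. Among 32 chemokine and cytokine genes Ccr1 (-0.35), a chemokine receptor, lay lower and Ccl27a (0.25) higher with separate groups, and Cxcl1 (-0.92), a neutrophil attractant, and Cxcl14 (-0.39, and -0.21 without 8-week replicate 2) overlapped. Of 34 cell cycle genes 26 lay below 0 with a median of -0.09, which was 0.00 without 8-week replicate 2. Top2a, a DNA topoisomerase of dividing cells, measured 6.57, 6.67, 6.77 and 6.55 at 12 weeks, against 7.02, 7.59, 6.99 and 6.89 at 8 weeks. Its groups were separate, as were those of Ccna2 (-0.39), cyclin A2, and Cdkn2c (-0.33), an inhibitor of cell cycle kinases, while Mki67 (-0.32, and -0.16 without 8-week replicate 2), the Ki-67 antigen, overlapped. Top2a, Ccna2 and Ccr1 had low signals, with means below every array median at both times.

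Core circadian clock genes had no common direction with time on HFD-EPA/DHA, and the 8-week mice spread far more than the 12-week mice. The list holds genes that peak at opposite times of day. Its median therefore cannot show whether the clock ran earlier or later. Of 20 core clock genes measured, 10 lay above 0 and 10 below, with a median of 0.00, and none had an unadjusted p under 0.05. Arntl, the activator BMAL1, measured 9.34, 9.81, 9.89 and 10.17 at 12 weeks, against 10.02, 10.69, 7.53 and 9.40 at 8 weeks. Dbp, an output factor that peaks opposite to Arntl, measured 9.44, 8.76, 8.42 and 8.14 at 12 weeks, against 8.91, 6.98, 10.79 and 9.35 at 8 weeks. At 8 weeks replicate 2 had the highest Arntl and the lowest Dbp, and replicate 3 the reverse. The 12-week livers lay between them for both genes. The SD of Dbp was 0.56 at 12 weeks and 1.58 at 8 weeks, and that of Arntl 0.34 and 1.36.

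**Figure D4:**
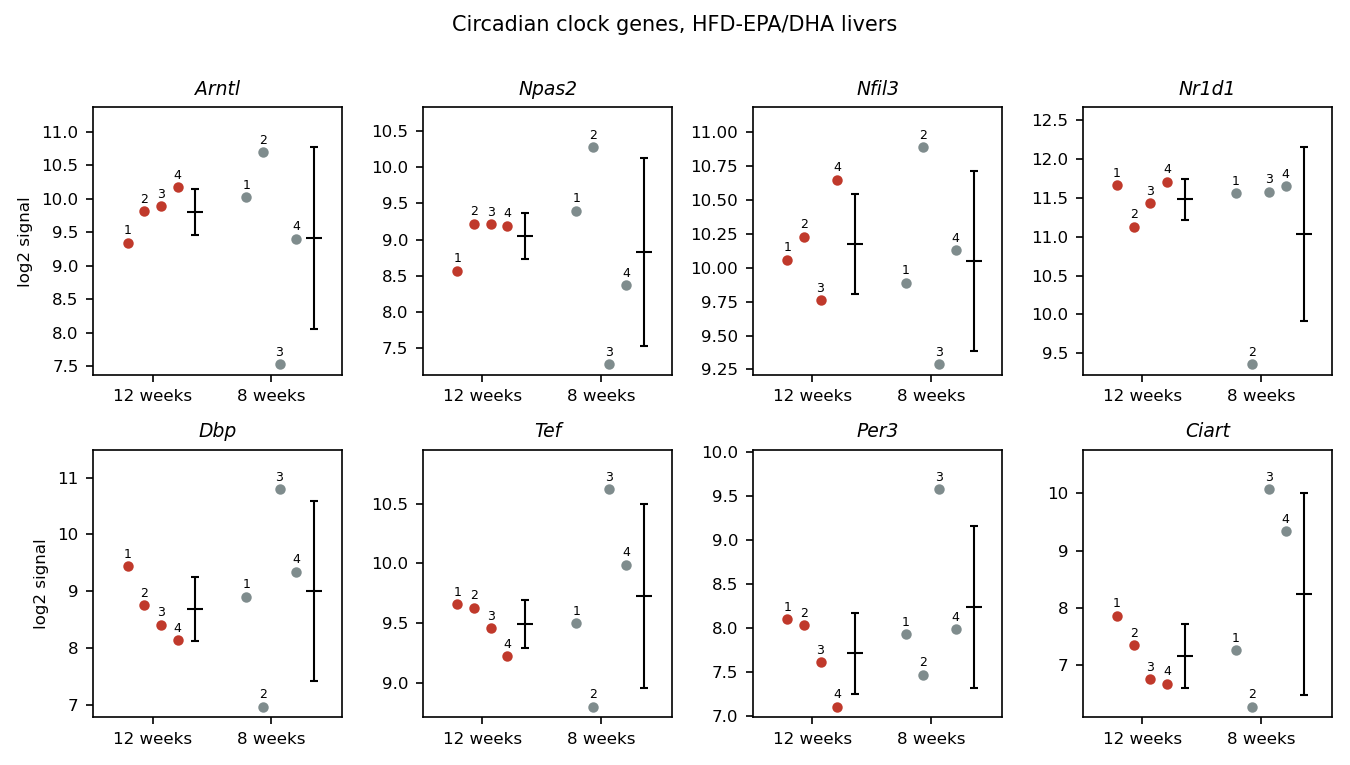
Log2 signal (y axis) of 8 clock genes in each HFD-EPA/DHA liver at 12 weeks (left) and 8 weeks (right), points numbered by replicate, with the mean and SD (n = 4 each) as bars. At 8 weeks, replicate 2 was highest and replicate 3 lowest for Arntl, Npas2 and Nfil3, and replicate 2 was lowest for Nr1d1, Dbp, Tef, Per3 and Ciart.

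The wider spread at 8 weeks ran through the clock. The SD was larger at 8 weeks for 18 of 20 core clock genes and the median SD was 0.19 at 12 weeks and 0.71 at 8 weeks, while over all genes 57.9% had the larger SD at 8 weeks and the medians were 0.13 and 0.14. On the other diets the clock medians were 0.27 at 12 weeks and 0.30 at 8 weeks of HFD-corn oil, and 0.24 and 0.25 on control. No test of these spreads was made. Npas2, a partner of Arntl, measured 8.57, 9.22, 9.21 and 9.19 at 12 weeks, against 9.40, 10.28, 7.28 and 8.37 at 8 weeks. Nr1d1, the repressor REV-ERBα, measured 11.66, 11.13, 11.43 and 11.71 at 12 weeks, against 11.56, 9.36, 11.58 and 11.65 at 8 weeks. Ciart, with the 3 E-boxes printed above, measured 7.86, 7.34, 6.75 and 6.67 at 12 weeks, against 7.26, 6.27, 10.07 and 9.34 at 8 weeks. Per3, with the 2 D-boxes, measured 8.10, 8.03, 7.61 and 7.11 at 12 weeks, against 7.93, 7.47, 9.57 and 7.99 at 8 weeks. Per3 and Ciart followed Dbp at 8 weeks, highest in replicate 3, and Nr1d1 was low in replicate 2 and near 11.6 in the others. The log2 fold changes were 0.21 for Npas2, 0.45 for Nr1d1, -1.08 for Ciart and -0.53 for Per3, and each 95% interval included 0.

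The other members ranged from -0.27 to 0.18 on HFD-EPA/DHA. Among activators and related receptors, Clock was at 0.11 and Rora at 0.05. Among repressors, Per1 was at -0.17, Cry1 at 0.03, Cry2 at -0.10, Nr1d2 at 0.15, Bhlhe40 at 0.10 and Bhlhe41 at -0.27. Among output factors, Tef was at -0.24, Hlf at -0.11 and Nfil3, which competes with Dbp for the D-box, at 0.13. Csnk1e (-0.13), a kinase that marks period proteins, Fbxl21 (0.18), a ligase for cryptochromes, and Timeless (-0.02) completed the list. Direction depended on single 8-week livers: without replicate 3 Arntl was at -0.24 in place of 0.39 and Dbp at 0.28 in place of -0.32, and without replicate 2 the median of the list was -0.18. Without replicate 2 Arntl was at 0.82, Dbp at -0.996, Ciart at -1.74 and Nr1d1 at -0.11 in place of 0.45. Of the other members, Npas2 (0.69), Nfil3 (0.41), Cry1 (0.28) and Clock (0.19) were then further above 0, Fbxl21 was at 0.09, and Nr1d2 (-0.15) and Bhlhe40 (-0.27) lay below 0. Bhlhe41 (-0.60), Tef (-0.55), Per1 (-0.44), Cry2 (-0.30), Hlf (-0.26), Csnk1e (-0.20) and Timeless (-0.05) were further below 0. Without replicate 3 Ciart was at -0.47 and Per3 at -0.086.

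Clock changes with time were larger on the control diet, and the difference between diets did not pass adjustment. The median of the core clock list was 0.00 on HFD-EPA/DHA, 0.05 on HFD-corn oil and -0.45 on control. Dbp averaged 8.69 at 12 weeks and 9.01 at 8 weeks of HFD-EPA/DHA, 9.29 against 9.92 on HFD-corn oil, and 7.81 against 10.56 on control. The log2 fold change of Dbp was -0.32 on HFD-EPA/DHA, -0.63 on HFD-corn oil and -2.75 on control. It differed between HFD-EPA/DHA and control by 2.43 (95% interval 0.83 to 4.04, limma adjusted p = 0.983). Arntl was at 0.39 on HFD-EPA/DHA, 1.02 on HFD-corn oil and 2.11 on control, and Bhlhe41 at -0.27, -0.46 and -1.99. On control diet 4 probe sets passed the adjusted threshold between 12 and 8 weeks (0.00967%), among them Cdkn1a, an inhibitor of cell division with a circadian rhythm in liver, which was at 2.06 on control and 0.17 on HFD-EPA/DHA (0.52 without 8-week replicate 2 and -0.26 without replicate 3), while on HFD-corn oil 0 passed (0%), with 1374 at an unadjusted p under 0.05 (3.32%). The control count was 25 without HFD-EPA/DHA 8-week replicate 2 and 24 without replicate 3, with Dbp, Tef, Nfil3 and Bhlhe41 called in both, while their control fold changes stayed the same, since all 6 groups share 1 spread estimate per probe set.

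**Figure D5:**
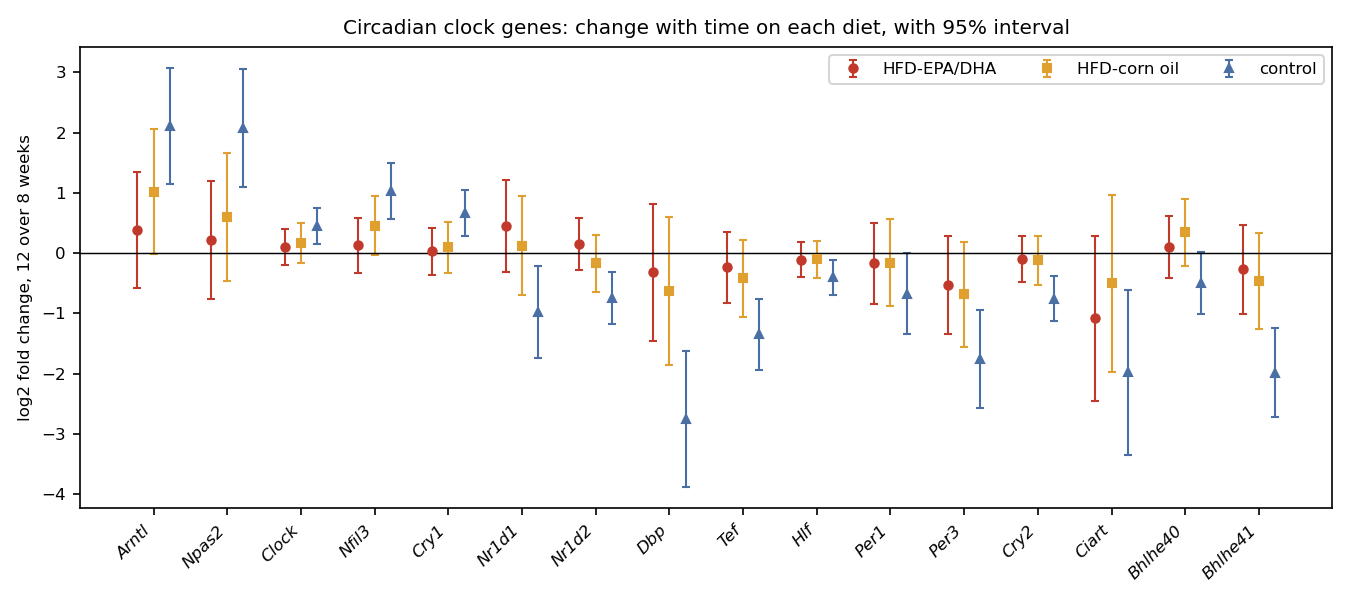
Log2 fold change (12 weeks over 8 weeks, y axis) of 16 clock genes on HFD-EPA/DHA (circles), HFD-corn oil (squares) and control diet (triangles), with 95% intervals from limma. Every HFD-EPA/DHA interval includes 0, while on control Dbp reached -2.75 and Arntl 2.11.

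Clock-controlled output genes of the liver followed the spread of the clock. Usp2, a clock-regulated deubiquitinase, measured 9.20, 8.97, 8.14 and 8.23 at 12 weeks, against 8.67, 8.86, 11.58 and 10.34 at 8 weeks. Cyp7a1, the rate-limiting enzyme of bile acid synthesis, measured 11.27, 10.96, 10.48 and 9.83 at 12 weeks, against 11.68, 10.13, 12.06 and 12.12 at 8 weeks. In both, 8-week replicates 3 and 4 lay above all 12-week livers, and 8-week replicate 2 lay within their range. Without 8-week replicate 3 Usp2 was at -0.65 in place of -1.23, and without replicate 2 Cyp7a1 was at -1.32 in place of -0.86. Tspan4 (-0.31) and Lonrf3 (-0.33, and -0.18 without replicate 2) overlapped. Of 21 output genes 13 lay below 0, with a median of -0.11 on HFD-EPA/DHA, -0.06 on HFD-corn oil and -0.40 on control, and the HFD-EPA/DHA median ran from -0.21 without 8-week replicate 2 to -0.07 without 12-week replicate 4. Against control, the named genes with the smallest p for a difference in change, given here with their HFD-EPA/DHA values, were Slc3a1 (-0.44, and -0.26 without 8-week replicate 2), an amino acid transporter subunit, Lonrf3, Acnat2 (-0.31, and -0.045 without that liver), an acyl transferase, Atp4a (-0.35), a proton pump subunit, Lgalsl (0.01, and 0.04 without it) and Top2a, all with an adjusted p of 0.982.

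A few genes with small p lay outside these groups and were chosen after their values were seen. Cobl, an actin nucleator, measured 8.53, 8.51, 8.50 and 8.41 at 12 weeks, against 8.98, 9.58, 8.92 and 9.09 at 8 weeks. Afm, the plasma protein afamin, measured 10.93, 10.85, 11.01 and 10.90 at 12 weeks, against 10.59, 10.39, 10.49 and 10.51 at 8 weeks. Both had separate groups and a limma adjusted p of 0.350, with log2 fold changes of -0.65 and 0.43. Plxnb1 (-0.49), a semaphorin receptor, Fam3c (-0.50), a secreted protein, and Sqstm1 (0.28), the autophagy adaptor p62, also had separate groups. Mir122, the gene of the most abundant liver microRNA, measured 8.93, 9.04, 8.53 and 9.04 at 12 weeks, against 7.58, 7.38, 6.69 and 7.97 at 8 weeks. It changed by 1.48 (log2) on HFD-EPA/DHA, by 1.18 on HFD-corn oil and by 2.23 on control, so the 12-week livers lay higher on average on all 3 diets.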

How the data were processed

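RNA from 24 mouse livers, 4 for each diet and time, was measured on Affymetrix Mouse Gene ST arrays, 1 liver per array. The deposited values are log2 signals that the authors made in Affymetrix Expression Console with iter-PLIER, quantile normalization and perfect-match probes only. The files do not name the log base, which was taken from the values, 4.39 to 13.93. Arrays have no read depth, so precision rests on the number of mice.

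All 6 groups entered 1 limma fit (limma 3.58.1, R 4.3.3) of group means with moderated variances, over 23 arrays, since HFD-corn oil 8 weeks replicate 3 was left out as in the study. Contrasts were 12 minus 8 weeks on HFD-EPA/DHA, the same on the other diets, and the differences between these changes, with Benjamini-Hochberg adjustment over all 41345 probe sets and a threshold of 0.05. The labels number the arrays as replicates, and the study states that 4 mice were selected from each diet group. The p-values rest on 1 moderated variance per probe set, shared by all 6 groups. A spread that differs between groups is therefore averaged. For Lcn2 the SD on HFD-EPA/DHA was 0.11 at 12 weeks and 2.04 at 8 weeks. Platform annotation gave 23521 probe sets 1 gene symbol, 1820 several and 16004 none, and the brightest probe set stood for each of 22180 genes. Of 1207 genes on 43 gene lists and 14 cell marker lists, 1092 were measured.

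The genes named were every core clock gene, every gene the study names, the 4 smallest p of each list described, the 6 smallest p in each test between diets, and a few others marked as chosen after their values were seen. Orm2, Fasn, Junb, Fabp4 and Hspa1b were named outside these rules. The members and lists were chosen with earlier results of these data known. Counts at an unadjusted p under 0.05 were added after no gene passed adjustment. The fit was tested on simulated data. The alternatives covered the arrays fitted, array weights, variance trend, an offset, filters, normalization, the replicate number as a block, and each array left out. Promoters came from RefSeq (GRCm38.p6) and were searched on both strands.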

Additional observations from a re-analysis of the deposited data

Results flagged for a closer look

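Within a group of 4 livers, 20 of 264 tests of a named gene showed 1 liver far from the other 3 by Dixon's criterion, which chance alone meets in about 1 group in 20. At 8 weeks replicate 2 was the outlying liver for 7 genes. It was high for Saa2 (13.77), Hp (13.41), Orm3 (9.24), Cxcl14 (8.33), Lonrf3 (8.34) and Cr2 (6.24), and low for Nr1d1 (9.36). Also at 8 weeks, replicate 4 was high for Cebpd (7.84) and Sqstm1 (12.14), and replicate 1 for D230004N17Rik (6.73).

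At 12 weeks replicate 1 was high for Acot3 (10.39), Cyp2c38 (11.92) and Mt2 (10.37), and low for Npas2 (8.57) and Tap2 (8.14). Replicate 4 was high for Moxd1 (7.45) and Nlrc5 (8.48) and low for Crat (10.75). Replicate 2 was high for Bhlhe40 (11.62) and replicate 3 for Bhlhe41 (7.56). All are log2 signals.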

How the results depend on the processing

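The counts of 0 higher and 0 lower probe sets on HFD-EPA/DHA, 0 on HFD-corn oil, and 0 in both tests between diets held under every alternative run, the replicate block included. The block gave 0 higher and 0 lower on HFD-EPA/DHA with a smallest adjusted p of 0.275, and 5 on control. Replicate numbers do not pair these mice, since the 12-week and 8-week livers came from different mice in separate feeding studies. Deviations of same-numbered 12-week and 8-week livers correlated at 0, -0.07, 0 and 0.02, which alone could not exclude a shared order. The smallest adjusted p on HFD-EPA/DHA ranged from 0.144 with a variance trend to 0.687 without 12-week replicate 2. The 4 probe sets called on control depended on the setting: 0 with all 24 arrays, 11 with array weights, 10 among probe sets above the median and 7 among those with 1 gene symbol, 0 to 8 with 1 control array left out, 0 to 10 with 1 HFD-corn oil array left out, and 0 to 25 with 1 HFD-EPA/DHA array left out (25 without 8-week replicate 2, 24 without replicate 3). In the difference from control the smallest adjusted p was 0.053 without 8-week replicate 3. With 1 HFD-EPA/DHA array left out, the log2 fold changes of some named genes crossed 0, and their ranges were Arntl -0.24 to 0.82, Bhlhe40 -0.27 to 0.32, Bhlhe41 -0.60 to 0.12, Cdkn1a -0.26 to 0.52, Clock -0.024 to 0.19, Cry1 -0.10 to 0.28, Cry2 -0.30 to 0.016, Dbp -0.996 to 0.28, Etnppl -0.016 to 0.20, Fads1 -0.030 to 0.22, Hlf -0.26 to 0.002, Lgalsl -0.12 to 0.075, Nfil3 -0.13 to 0.41, Npas2 -0.30 to 0.69, Nr1d1 -0.11 to 0.65, Nr1d2 -0.15 to 0.35, Per1 -0.44 to 0.10, Ppara -0.085 to 0.28, Tef -0.55 to 0.063 and Timeless -0.067 to 0.023. None of these genes was called on HFD-EPA/DHA in any of those fits, and the cause was not tested.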

Other observations

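Lists not described above also lay close to 0 on HFD-EPA/DHA. Of 19 NRF2 target and antioxidant genes 17 lay above 0, with a median log2 fold change of 0.08, and 0.05 without 12-week replicate 3. Of 34 fibrosis and extracellular matrix genes 29 lay below 0 with a median of -0.09, which was -0.037 without 8-week replicate 3. The mean deviation of that list was -0.122 to -0.013 in the 12-week livers, against 0.284 in 8-week replicate 3 and -0.074 to 0.023 in the other 8-week livers. Of 39 coagulation and complement genes 30 lay below 0 with a median of -0.08 and 5 had an unadjusted p under 0.05 downward, while without 8-week replicate 2 the median was -0.037 and 1 gene did. Of 34 respiratory chain subunits 23 lay above 0 with a median of 0.05, which was 0.015 without 12-week replicate 3. The summed signal of 12 stellate cell markers was 11157 to 12580 at 12 weeks, against 10927 to 11447 in 3 of the 8-week livers and 15359 in replicate 3, the 8-week liver with the lowest Arntl. Heat shock genes had a median of 0.10, which was 0.19 without 8-week replicate 2 and 0.05 without 12-week replicate 4, with the highest at 0.84 for Hspa1b, an inducible chaperone.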
